A study of Oryza sativa with 18 samples.

Results

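The genes described here are 191 rice genes, measured by 200 probe sets, whose transcripts were higher after 48 h of brown planthopper feeding in a resistant line and lower after the same time in its silenced, susceptible counterpart. They were taken from the 16322 probe sets that are annotated to a single gene and had a mean log2 signal of at least 7 over 18 arrays, out of 57381 probe sets on the array. Members were chosen by their 48 h minus 0 h differences: a member had a 48 h minus 0 h difference of at least 0.6 in NIL-Bph6 and of at most -0.6 in NIL-Bph6-RNAi, and 527 probe sets passed both thresholds. The 200 with the largest gap between the lines' differences were kept, which left 327 beyond the limit. All differences are on the log2 scale, on which 1 is a 2-fold change, and the 0 h and 48 h arrays that chose the members give descriptions of them and no test.

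Total RNA came from the leaf sheath of plants at the four-leaf stage, about 3 weeks old, kept in a growth chamber; the growth protocol names the fourth leaf as the material. NIL-Bph6 is labelled resistant to the brown planthopper and NIL-Bph6-RNAi, the same name with RNA interference, is labelled susceptible. By the sample names, a near-isogenic line carries Bph6, a planthopper resistance gene. Each line was sampled without insects at 0 h and with insects for 6 h and 48 h, with 3 arrays labelled as biological replicates in each of the 6 groups. No insect-free plants of 6 h or 48 h were analysed here, so insect feeding and the time of sampling cannot be told apart. The labels do not say whether an array holds 1 plant or a pool, how many RNAi lines were used or which promoter drove the silencing, and the silenced gene itself was not analysed here. Other fields of the labels go against the sample names: the cultivar field reads 9311 for the NIL-Bph6 samples and NIL-BPH9 for the NIL-Bph6-RNAi samples, and the descriptions give 3 h and 6 h where the names give 6 h and 48 h. Groups follow the sample names.

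The brown planthopper is an insect that feeds on phloem sap from the rice leaf sheath. Young leaf sheath grows by cell division at its base, driven by cyclins and cyclin-dependent kinases and by kinesins, motor proteins that move along microtubules and help to build the spindle and the new cell plate. The cells then lengthen while expansins, endoglucanases and polysaccharide synthases loosen and extend the wall. In bulk tissue, fewer cells of a type and less RNA per cell cannot be told apart.

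The 18 arrays were on 1 scale: the median over all probe sets lay between 5.67 and 6.01, and the mean correlation of an array with the others lay between 0.905 and 0.923. The number of arrays limits the precision. Green leaf markers averaged between 11.002 and 11.71 in the 6 groups, lowest in NIL-Bph6 at 48 h, 11 seed storage genes between 5.02 and 5.28, and 3 pollen and anther genes between 4.54 and 5.01; no root marker of the list was matched. The 3′ minus 5′ signal of 7 rice control pairs, a measure of RNA integrity in which a higher value means more 5′ loss, was at 0 h 1.78 ± 0.42 (SD, n = 3) for NIL-Bph6 against 2.39 ± 0.19 for NIL-Bph6-RNAi, and between 1.99 and 2.16 for the other groups. The part of this 0 h gap in the members' 0 h values was not tested.

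Over the members, the 48 h difference in NIL-Bph6 had a median of 1.53, from 0.60 to 3.30, and in NIL-Bph6-RNAi a median of -1.82, from -3.07 to -0.61. Over all 16322 eligible probe sets the medians were 0.00 and 0.01. The median member read 8.07, 8.74 and 8.32 on the NIL-Bph6 arrays of 0 h, 9.72, 9.61 and 9.27 on those of 6 h, and 10.01, 9.52 and 10.02 on those of 48 h. In NIL-Bph6-RNAi it read 8.51, 9.52 and 9.45 at 0 h, 9.46, 9.48 and 8.16 at 6 h, and 7.30, 7.997 and 6.67 at 48 h. The median of the eligible probe sets stayed between 9.82 and 9.96 on every array. The NIL-Bph6 arrays of 6 h and 48 h were above those of 0 h, and the 3 NIL-Bph6-RNAi arrays of 48 h were the lowest of all 18.

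**Figure D1:**
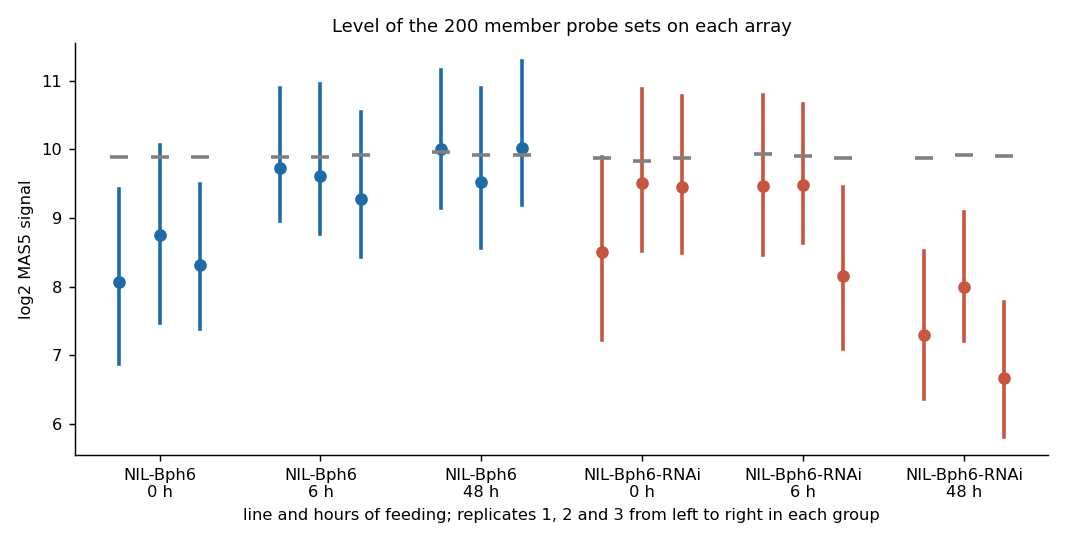
Level of the 200 member probe sets on each of the 18 arrays (log2 signal): points are the median, bars the lower to upper quartile, and grey dashes the median of all eligible probe sets. The member median runs from 6.67 on NIL-Bph6-RNAi 48 h replicate 3 to 10.02 on NIL-Bph6 48 h replicate 3, while the grey dashes stay between 9.82 and 9.96.

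The steps of the course differed in size between the lines. In NIL-Bph6, the difference between 6 h and 0 h was above 0 for all 200 members, with a median of 1.28. Of the 16322 eligible probe sets, 7007 were above 0 there, with a median of -0.05. The NIL-Bph6 difference between 48 h and 6 h had a median of 0.26, against 0.06 over the eligible probe sets. By 6 h, 189 members had gained at least 50% of their 48 h difference. In NIL-Bph6-RNAi, the median difference between 6 h and 0 h was -0.02, with 94 members above 0, and that between 48 h and 6 h was -1.71, with no member above 0. For the same 2 steps, 8602 and 7952 of the eligible probe sets were above 0, with medians of 0.02 and -0.01. Only 4 members had lost at least 50% of their 48 h difference in this line by 6 h. The silenced line's first step depended on single arrays: its median was 0.43, with 158 members above 0, without 6 h replicate 3, and -0.46, with 20 above 0, without 0 h replicate 1. Its second step stayed between -2.18 and -1.33 with 1 array left out at a time, and the first step of NIL-Bph6 between 1.16 and 1.40. The small second step of NIL-Bph6 ran from 0.10, without 6 h replicate 3, to 0.44, without 48 h replicate 2. These values share arrays with the choice of members, which in part fixes their signs, and carry no test.

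The line difference, NIL-Bph6 minus NIL-Bph6-RNAi, had opposite signs at 0 h and 48 h. At 0 h, before any insect was applied, all 200 members were lower in NIL-Bph6, with a median of -0.84 and a range of -1.75 to -0.30, and 168 were lower by at least 0.6. At 6 h the median was 0.58, with 187 members above 0 and 13 below. At 48 h it was 2.46, from 1.03 to 4.34. The opposite 48 h changes thus started from unequal levels, and the 0 h and 48 h gaps are in part fixed by the choice of members.

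**Figure D2:**
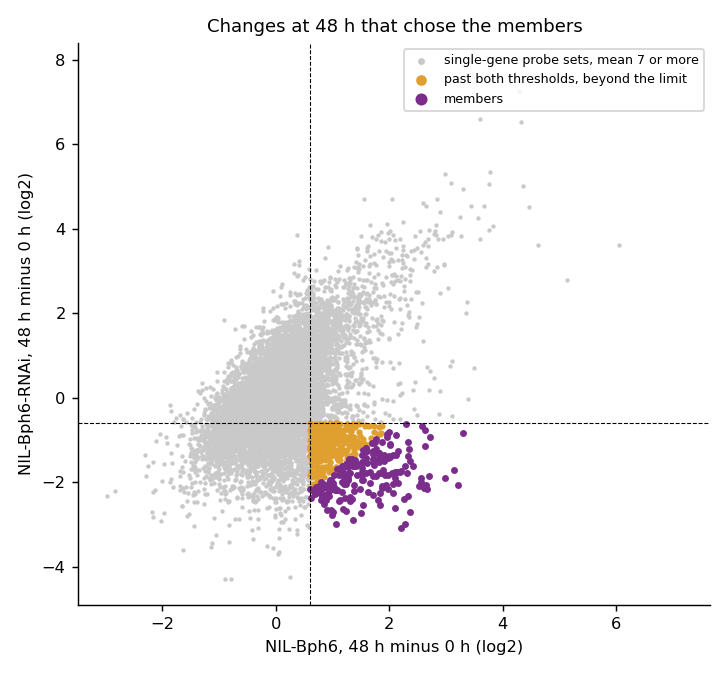
The 48 h minus 0 h difference (log2) in NIL-Bph6 (x axis) and in NIL-Bph6-RNAi (y axis) for every eligible probe set (grey), those past both thresholds but beyond the limit (orange) and the members (purple); dashed lines are the thresholds of 0.6 and -0.6. The members fill the outer part of the lower right corner, out to 3.30 on the x axis and -3.07 on the y axis.

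The mirror image, a fall of at least 0.6 in NIL-Bph6 with a rise of at least 0.6 in NIL-Bph6-RNAi, was met by 22 probe sets, against 527 for the direction of the members. Just inside the NIL-Bph6 threshold were LOC4330104 (0.60) and LOC4329253 (0.62), and just outside were LOC4332757 (0.59) and LOC4330517 (0.58). At the NIL-Bph6-RNAi threshold, KCS20 (-0.61) and CSLA9 (-0.66) were inside and LOC4327387 (-0.42) and LOC4344513 (-0.40) outside. At the limit on number, LOC4340712 and LOC9271482, each with a gap between the lines of 2.75, were kept, and LOC4350351 (2.75) and CDKB2-1 (2.74), a cyclin-dependent kinase of mitosis, were not. At the minimum level, LOC4338959 (mean 7.01) and LOC9271482 (7.03) were inside and LOC4332503 (6.90) and LOC4341783 (6.87) outside.

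Of the 191 member genes, 26 carried a gene name (13.6%, against 14.3% of all eligible genes), so most members are known here by locus number only. Among the 26, 10 act in the cell cycle or are kinesins: the mitotic cyclins CYCA2-1, CYCB1-1, CYCB2-1 and CYCB2-2, the kinesins KIN10A, KIN10C, KIN12C and KIN14E, the cell-cycle regulator RSS1 and the replication protein RPA1B. These 10 had a median 48 h difference of 1.82 in NIL-Bph6 and of -1.46 in NIL-Bph6-RNAi. For comparison, 2036 eligible genes carried a name. The cell-cycle and histone list held 74 tested genes, and the kinesin list, made after the members' values were seen, held 32. Tested genes need not reach the minimum level, and the probe sets used for ORC3 and KIN14R of these lists lie under it. The list counts are therefore not a share of the 2036, and no matching background was counted for the 10 of 26. Whether the 10 exceed such a background was not tested.

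CYCB1-1, a B-type cyclin that marks cells entering mitosis, read 7.90, 8.59 and 8.77 in NIL-Bph6 at 0 h, 10.52, 10.08 and 9.85 at 6 h, and 10.54, 9.95 and 10.44 at 48 h. CYCB1-1 in NIL-Bph6-RNAi read 8.30, 9.94 and 9.93 at 0 h, 9.70, 10.20 and 8.38 at 6 h, and 7.29, 8.56 and 7.16 at 48 h. In the resistant line the 0 h arrays lay apart below the others, and in the silenced line the highest 48 h array overlapped the lowest arrays of 0 h and 6 h. CYCB2-2, another B-type cyclin, gave 6.78, 7.98 and 8.29 in NIL-Bph6 at 0 h, 10.57, 9.99 and 9.61 at 6 h, and 10.30, 9.40 and 10.47 at 48 h. CYCB2-2 in NIL-Bph6-RNAi gave 7.60, 9.47 and 9.94 at 0 h, 9.35, 10.37 and 8.05 at 6 h, and 5.49, 7.93 and 5.51 at 48 h. The shape was that of CYCB1-1 with a wider span, and a second member probe set of CYCB2-2 had 48 h differences of 1.98 and -1.82 against 2.37 and -2.69 for the first. CYCB2-1 had 48 h differences of 1.42 and -1.62, and CYCA2-1, an A-type cyclin, of 1.53 and -1.23.

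KIN10A, a kinesin, had the largest gap between the lines of any named member. KIN10A in NIL-Bph6 read 6.17, 7.20 and 7.53 at 0 h, 9.31, 9.13 and 8.45 at 6 h, and 9.49, 8.74 and 9.30 at 48 h. KIN10A in NIL-Bph6-RNAi read 6.85, 8.81 and 8.96 at 0 h, 8.77, 9.002 and 7.12 at 6 h, and 2.97, 7.36 and 5.07 at 48 h. Its 48 h difference of -3.07 in the silenced line came from arrays that themselves spanned more than 4 log2 units. Of the members, 15 including KIN10A had a mean under the overall median of 5.78 in the silenced line at 48 h, where the size of a difference is uncertain. KIN10C, of the same kinesin family, read 6.23, 7.14 and 7.53 in NIL-Bph6 at 0 h, 8.92, 8.50 and 8.27 at 6 h, and 9.04, 8.34 and 9.001 at 48 h. KIN10C in NIL-Bph6-RNAi read 6.53, 8.32 and 8.23 at 0 h, 8.17, 8.54 and 6.39 at 6 h, and 5.18, 7.09 and 6.40 at 48 h, with the first 0 h array inside the range of the 48 h arrays. KIN12C and KIN14E had 48 h differences of 1.82 and 1.73 in NIL-Bph6 and of -1.31 and -1.28 in NIL-Bph6-RNAi.

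RSS1, known in rice for keeping cells dividing under salt stress, read 5.76, 7.11 and 6.92 in NIL-Bph6 at 0 h, 9.30, 8.57 and 8.35 at 6 h, and 9.14, 8.66 and 8.98 at 48 h. RSS1 in NIL-Bph6-RNAi read 6.83, 8.47 and 8.49 at 0 h, 8.08, 8.64 and 7.14 at 6 h, and 6.25, 7.16 and 6.27 at 48 h. Its gain in the resistant line, 2.33, was larger than its loss in the silenced line, -1.37, the reverse of KIN10A. RPA1B, a subunit of the protein that coats single-stranded DNA during replication, had 48 h differences of 1.72 and -1.45. Across the 10 genes, the difference between 6 h and 0 h was 1.61 in NIL-Bph6 (median, 1.19 to 2.37) and 0.06 in NIL-Bph6-RNAi (-0.06 to 0.52).

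The named members also include genes of growth and of the cell wall. GRF6, a growth-regulating factor, a plant transcription factor family of growing organs, read 6.85, 6.999 and 7.48 in NIL-Bph6 at 0 h, 9.03, 8.40 and 8.82 at 6 h, and 9.49, 8.72 and 9.07 at 48 h. GRF6 in NIL-Bph6-RNAi read 6.56, 8.13 and 8.22 at 0 h, 8.27, 8.77 and 7.83 at 6 h, and 5.76, 6.51 and 6.36 at 48 h. All 3 arrays of GRF6 in the silenced line at 48 h lay below all its other arrays. EXPB17, a beta-expansin, which loosens walls, read 6.73, 7.31 and 7.64 in NIL-Bph6 at 0 h, 9.26, 8.83 and 8.31 at 6 h, and 9.04, 9.06 and 9.77 at 48 h. EXPB17 in NIL-Bph6-RNAi read 7.11, 8.57 and 8.40 at 0 h, 9.25, 9.05 and 6.97 at 6 h, and 5.94, 7.94 and 6.15 at 48 h. The silenced line's spread within each time point was wide, and its 48 h arrays overlapped those of 0 h and 6 h.

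CSLA9, a cellulose synthase-like protein, had a 48 h difference of 2.57 in NIL-Bph6, taken from a mean at 0 h of 5.61, which is under the overall median of 5.78, so its size is uncertain. CSLA9 in NIL-Bph6 read 4.35, 6.30 and 6.18 at 0 h, 8.36, 7.93 and 7.89 at 6 h, and 8.66, 7.88 and 8.001 at 48 h. CSLA9 in NIL-Bph6-RNAi read 5.69, 7.36 and 7.74 at 0 h, 7.69, 8.10 and 6.95 at 6 h, and 5.83, 6.77 and 6.20 at 48 h. The silenced line's 0 h and 48 h arrays overlapped, and its -0.66 lies near the threshold. TBL3, which transfers acetyl groups to xylan, had 48 h differences of 1.63 and -2.23, of which the first rests in part on 1 low 0 h array, 4.76 against 7.01 and 7.71. GLU13, an endoglucanase, had 1.83 and -1.30. KCS20, an enzyme of very-long-chain fatty acid synthesis, from which waxes are made, had 2.30 and -0.61.

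**Figure D3:**
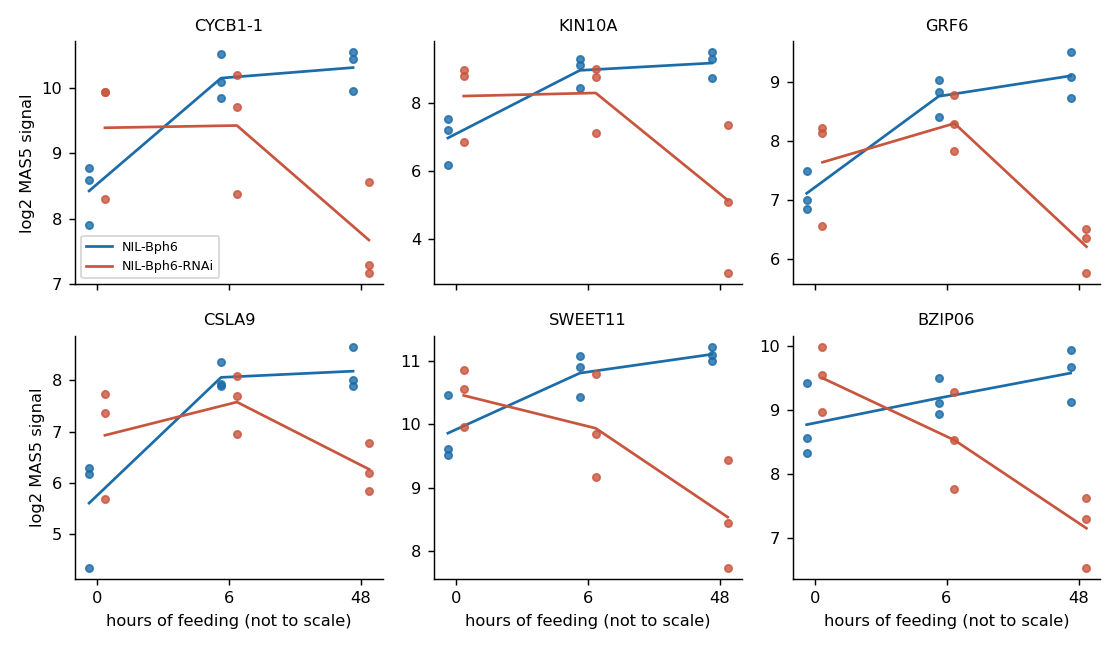
Log2 signal of 6 named members at 0, 6 and 48 h of feeding (x axis not to scale) in NIL-Bph6 (blue) and NIL-Bph6-RNAi (red); points are arrays, 3 per group, and lines join the group means. The NIL-Bph6 means of all 6 genes lie above those of 0 h at 6 h and 48 h, while in NIL-Bph6-RNAi CYCB1-1, KIN10A, GRF6 and CSLA9 are lower only at 48 h and SWEET11 and BZIP06 are already lower at 6 h.

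The remaining named members include signalling proteins, a sugar transporter and transcription factors. SWEET11, a sucrose transporter, read 9.51, 10.45 and 9.61 in NIL-Bph6 at 0 h, 10.90, 11.08 and 10.43 at 6 h, and 11.22, 10.99 and 11.08 at 48 h. SWEET11 in NIL-Bph6-RNAi read 9.95, 10.85 and 10.55 at 0 h, 10.79, 9.85 and 9.16 at 6 h, and 8.44, 9.43 and 7.74 at 48 h. Here the silenced line was lower at 6 h than at 0 h on average, and these groups of arrays overlapped. BZIP06, a bZIP transcription factor, read 8.57, 9.42 and 8.32 in NIL-Bph6 at 0 h, 9.11, 9.50 and 8.94 at 6 h, and 9.93, 9.13 and 9.67 at 48 h. BZIP06 in NIL-Bph6-RNAi read 8.97, 9.99 and 9.54 at 0 h, 9.29, 8.53 and 7.76 at 6 h, and 7.29, 7.63 and 6.53 at 48 h. The difference was larger in the silenced line, -2.35, than in the resistant line, 0.81, whose 0 h and 48 h arrays overlapped.

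BZIP02, a second bZIP factor, had 48 h differences of 1.18 and -1.77. IAA14, an Aux/IAA repressor of auxin responses, had 1.29 and -1.78, and BU1, a helix-loop-helix protein induced by brassinosteroid, had 1.30 and -1.55. ER2, a receptor kinase of the ERECTA family, which regulates organ growth, had 1.70 and -1.07. TDL1B, a small secreted protein related to TAPETUM DETERMINANT1, had 1.02 and -2.11, and CMT3, a plant DNA methyltransferase, had 1.75 and -1.03. The beta-glucosidase family members BGLU8 and BGLU30 had 1.14 and 0.76 in NIL-Bph6 and -2.42 and -2.08 in NIL-Bph6-RNAi. For BGLU30, the NIL-Bph6 arrays read 10.66, 10.15 and 10.74 at 6 h and 9.83, 11.07 and 10.14 at 48 h. Only 1 array of 48 h lay above those of 6 h, and those at 9.83 and 10.14 lay below them.

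The 16 named members outside the cell cycle and kinesins were spread more widely at 6 h in the silenced line. Their difference between 6 h and 0 h in NIL-Bph6-RNAi ran from -0.97 to 0.94, with 8 genes above and 8 below 0, against -0.06 to 0.52 and 9 of 10 above 0 for the cell-cycle and kinesin genes. These values include the low 6 h replicate 3 of the silenced line, and the difference between the classes was not tested.

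The largest gaps among members with no gene name belonged to genes whose role is not given in the sources used here. LOC4330051 read 6.71, 8.06 and 9.65 in NIL-Bph6 at 0 h, 11.79, 11.13 and 11.69 at 6 h, and 11.57, 10.90 and 11.60 at 48 h. LOC4330051 in NIL-Bph6-RNAi read 7.56, 9.96 and 10.58 at 0 h, 10.89, 11.83 and 11.07 at 6 h, and 5.96, 8.57 and 7.40 at 48 h. The lines overlapped at 0 h and at 6 h, and at 48 h they lay apart. LOC4347767 had 48 h differences of 2.28 and -2.98, of which the second rests in part on 1 array at 1.07 beside 6.13 and 7.37. LOC4347830 and LOC4341653 had 2.99 and 3.14 in NIL-Bph6 and -1.89 and -1.70 in NIL-Bph6-RNAi.

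**Figure D4:**
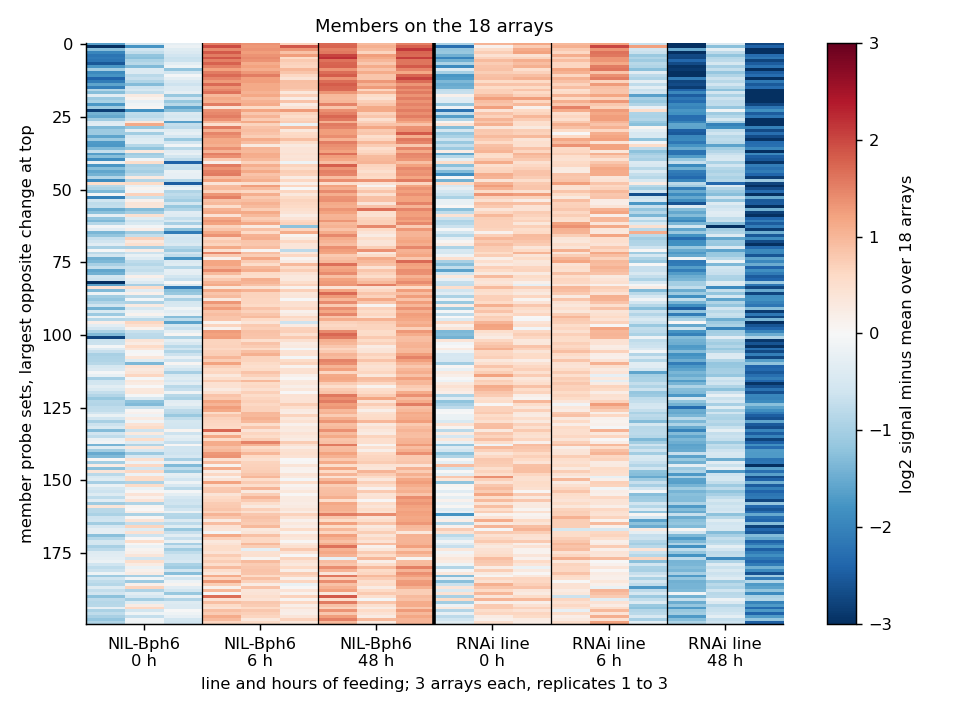
Log2 signal of the 200 member probe sets (rows, largest opposite change at the top) on the 18 arrays (columns, 3 per group, replicates 1 to 3), each minus its own mean over the 18 arrays; the colour scale stops at -3 and 3, and RNAi line stands for NIL-Bph6-RNAi. Whole columns shift together: NIL-Bph6-RNAi 6 h replicate 3 and 0 h replicate 1 are blue beside their lighter or red group mates.

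The members moved together between replicate arrays of the same group. On NIL-Bph6-RNAi 6 h replicate 3, 196 of 200 members had the lowest of their 3 values, against 39.6% of eligible probe sets, and the median member lay 1.34 below the mean of the other arrays. On NIL-Bph6-RNAi 0 h replicate 1, 187 members were lowest, against 32.6%, and on NIL-Bph6-RNAi 48 h replicate 3, 158 were lowest, against 30.02%, while replicate 2 of that group was highest for 174, against 34.1%. In the resistant line, 177 members were lowest on 48 h replicate 2 (eligible 41.5%) and 174 on 6 h replicate 3 (eligible 32.7%). The median member lay 0.52 and 0.45 below the other arrays there. The spread between replicates was thus largely shared by the members, so they do not act as separate measurements.

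To describe how the choice depends on single replicates, the members were chosen again without the 0 h and 48 h arrays of 1 replicate number. They were then read on those 4 arrays. The rule itself was made with earlier results of these data known, so the arrays left out were not fully outside the choice. Without replicate 1, 164 of the 200 were shared with the full choice, and 185 (92.5%) were higher at 48 h in NIL-Bph6 and lower at 48 h in NIL-Bph6-RNAi on the arrays left out, against 23.4% of eligible probe sets. Without replicate 2, the share was 72.5%, against 17.1%, and without replicate 3 it was 99.5%, against 23.3%. The median differences on the left-out arrays were 1.84, 0.46 and 1.67 in NIL-Bph6 and -1.04, -1.52 and -2.55 in NIL-Bph6-RNAi. Both directions were present in every set, with the NIL-Bph6 gain smallest on replicate 2. With 1 array a group there is no test, and since the members shift together these shares are not 200 separate observations.

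The 6 h arrays entered the choice only through the minimum mean level over 18 arrays, which does not depend on which line is higher. The line difference at 6 h was therefore tested, with limma over 32732 probe sets. No member was called at an adjusted p under 0.05 in either direction; of all probe sets tested, 0.315% were called higher in NIL-Bph6 and 0.547% lower. The lowest adjusted p of a member, by limma with Benjamini-Hochberg adjustment, was 0.248. At an unadjusted p under 0.05, 5 members were higher in NIL-Bph6 and none lower, against 4.99% higher and 5.87% lower of all tested. The 3 arrays of each line did not overlap for 11 members with NIL-Bph6 higher (5.5%, against 8.36% of all tested) and for 1 with NIL-Bph6 lower (background 9.23%). These shares are at or below the background.

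The median of the members' 6 h differences, 0.58, stood beside 0.01 over all tested, and 187 of 200 were above 0, against 51.8% of all tested. This median rested on 1 array: it was 0.11 without NIL-Bph6-RNAi 6 h replicate 3, with 140 members above 0, and 0.80 without replicate 1 of that group. The median standard error of a member's difference was 0.45.

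Among the members at an unadjusted p under 0.05, CMT3 was 1.27 ± 0.50 (SE, n = 3 and 3) higher in NIL-Bph6 at 6 h (limma adjusted p = 0.339), LOC4331274 1.15 ± 0.39 (limma adjusted p = 0.248) and LOC4338760 1.02 ± 0.40 (limma adjusted p = 0.335). LOC4330540 and LOC9270179, the others, differed by 0.88 and 0.95. The largest difference of any member, 1.33 for LOC4331789, had a wide spread (limma adjusted p = 0.554), with the arrays of NIL-Bph6-RNAi at 7.82, 8.05 and 4.62. The 10 cell-cycle and kinesin genes differed by 0.42 to 0.87, none past the test. At the other end stood LOC9270481 at -1.08 ± 0.61 and LOC4351585 at -0.66 ± 0.38 (limma adjusted p = 0.545 and 0.555). BGLU30 at -0.45, BU1 at -0.14 and TBL3 at -0.09 were the named members below 0. The genes named at 6 h were chosen after their values were seen.

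**Figure D5:**
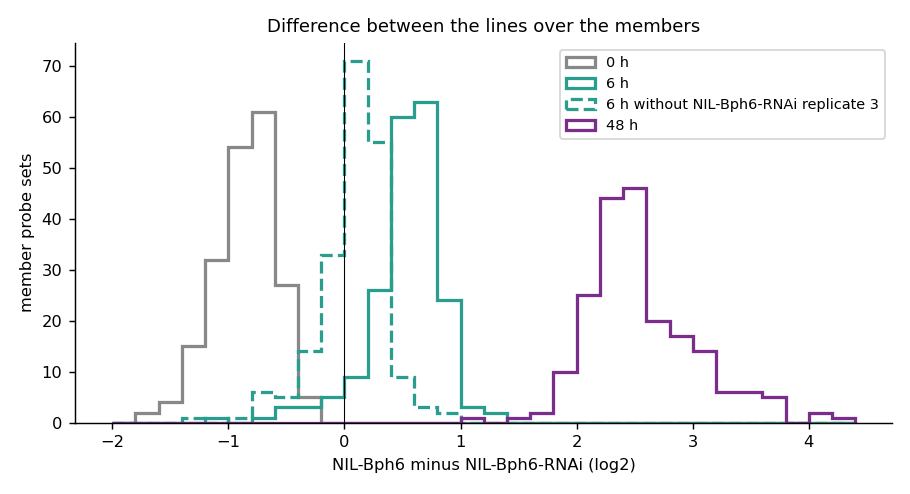
Number of member probe sets by their line difference (NIL-Bph6 minus NIL-Bph6-RNAi, log2) at 0 h, 6 h and 48 h, and at 6 h without NIL-Bph6-RNAi replicate 3 (dashed). The medians are -0.84 at 0 h, 0.58 at 6 h, 0.11 at 6 h without that array and 2.46 at 48 h.

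Genes outside the members are described next for the cell-cycle, kinesin and cell-wall lists, each of which holds members. For both lines, the test of 48 h against 0 h called 8.18% of all probe sets higher and 7.48% lower in NIL-Bph6, and 16.7% higher and 16.6% lower in NIL-Bph6-RNAi. These shares come from the contrasts that chose the members. The called counts and medians that follow therefore leave the members out, and nothing is read from them about the members. The cell-cycle and histone list held 74 tested genes, of which 6 are members. Of the other 68 at 48 h, 19 were called higher and 1 lower in NIL-Bph6, and 8 higher and 13 lower in NIL-Bph6-RNAi. Their median differences were 0.37 and -0.09. Some lists without a member had similar shares called higher in NIL-Bph6: 19 of 70 genes for calcium signalling and 20 of 76 for abscisic acid. Others had lower shares, such as transporters with 7 of 91. The 13 of 68 called lower in NIL-Bph6-RNAi stand beside 16.6% of all probe sets. CYCD3-1, a D-type cyclin of the entry into division, passed both thresholds of the choice but lay beyond the limit, with 48 h differences of 1.19 ± 0.31 (SE) and -1.24 ± 0.31. RBR1, the retinoblastoma-related protein that holds back the start of DNA replication, had 1.26 ± 0.35 and -1.21 ± 0.35. Its mean in NIL-Bph6-RNAi at 48 h, 5.56, lay under the overall median of 5.78, so the size of the second difference is uncertain. RBR2, of the same family, had -0.04 ± 0.15 and -0.19 ± 0.15. MCM2, a subunit of the replicative helicase, had 1.31 ± 0.37 and -0.80 ± 0.37. PCNA, the sliding clamp of DNA replication, had 0.57 ± 0.27 and -0.14 ± 0.27. The list was not uniform. Among the 8 genes called higher in NIL-Bph6-RNAi, CYCD5-3 had 0.16 ± 0.16 and 0.84 ± 0.16, and CDKF-1 had 0.57 ± 0.11 and 0.80 ± 0.11. The histone gene H2B.10 was the 1 gene of the list called at 6 h, 2.35 higher in NIL-Bph6 (limma adjusted p = 0.00177). Unlike the members, H2B.10 was also higher in NIL-Bph6 at 0 h, 9.41 against 8.51, and its 48 h difference in NIL-Bph6-RNAi was -0.08. At 6 h, H2B.5, H2B.6, H2B.7 and H2B.11 differed by 0.11, 0.15, 0.25 and 0.33.

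Kinesins, a list made after the members' values were seen, held 32 tested genes, of which 4 are members. Of the other 28 at 48 h, 3 were called higher and 1 lower in NIL-Bph6, and none higher and 18 lower in NIL-Bph6-RNAi. Their median differences were 0.13 and -0.93. KIN14N, which also passed both thresholds beyond the limit, had differences of 0.93 ± 0.29 and -0.92 ± 0.29, while KIN14A had -0.47 ± 0.27 and -1.75 ± 0.27, lower in both lines.

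The cell-wall list held 77 tested genes, of which 4 are members. Of the other 73 at 48 h, 10 were called higher and 2 lower in NIL-Bph6, and 7 higher and 35 lower in NIL-Bph6-RNAi. Their medians were 0.12 and -0.67. The cellulose synthases CESA1 and CESA6 had differences of -0.54 ± 0.22 and -0.29 ± 0.26 in NIL-Bph6 and of -1.45 ± 0.22 and -1.42 ± 0.26 in NIL-Bph6-RNAi. The expansins were not uniform: EXP7 had 0.31 ± 0.47 and -2.24 ± 0.47, and EXP6 had 1.81 ± 0.37 and -0.68 ± 0.37. No gene of the cell-wall list was called at 6 h.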

How the data were processed

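Total RNA of 18 rice samples labelled leaf sheath was hybridised to Affymetrix arrays after 3′ amplification and biotin labelling, per the labels' protocols. The deposited values are log2 signals made with MAS5, per the submitters' processing notes; no version is named. The arrays' linear means, trimmed by 2%, lay between 499.94 and 499.95, so no further scaling was applied. Probe sets were named through the platform's annotation (22436 with 1 gene, 95 with several, 34850 with none) and the RefSeq gene table of assembly ASM3414082v1. The 123 control probe sets were left out. A probe set was tested if 3 arrays exceeded the overall median of 5.78, which all 200 members did. limma 3.58.1 in R 4.3.3 fitted 1 mean per group over 18 arrays, with eBayes(trend=TRUE) and Benjamini-Hochberg adjustment over 32732 probe sets. In simulated data of the 6 h comparison it recovered 36 of 100 differences of 1 and 76 of 100 of 2 (log2), with 5 false calls. The simulated differences were put on probe sets drawn at random, with separate noise, so recovery among the members was not measured. The members, 25 gene lists (matched by symbol) and alternatives were chosen with earlier results of these data known. Genes were named by rule: the 10 named members with the largest gap between the lines, members called at 6 h (none), up to 3 members per list and those at the thresholds. This gave 19 besides those at the thresholds, and 11 were added after values were seen, as were the examples from the lists' other genes; leaving out single arrays from the steps between times was added then too.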

Additional observations from a re-analysis of the deposited data

How the results depend on the processing

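The choice of members gave 527 probe sets before the limit, between 508 and 542 under quantile normalization, median centring, an added offset or group medians, and between 428 and 716 without 1 replicate; 164 to 198 of the 200 were shared under the former. The highest of these counts left out the second NIL-Bph6 array of 0 h. No member was called at 6 h under any of 15 alternatives. Of all probe sets, 282 were called at 6 h, against 727 with array weights, and between 179 and 233 with 1 replicate left out. With the replicate number as a block, 261 were called and no member; the correlation of same-numbered 6 h samples' deviations, -0.04 to 0.09, did not show that the numbers pair the samples. Median centring split the calls into 73 higher and 217 lower, against 103 and 179. The members' median 6 h difference was 0.28 with array weights, and between 0.11 and 0.80 with 1 replicate left out. At 6 h the difference of EXPB17, 0.37, became -0.15 with array weights. Leaving out 1 array of 6 h at a time, it ran from -0.36 to 0.79 for EXPB17, from -0.064 to 0.74 for KIN14E (0.46 with all arrays), from -0.36 to 0.17 for BU1 (-0.14) and from -0.46 to 0.15 for TBL3 (-0.09). The lowest values of EXPB17 and KIN14E were those without the third NIL-Bph6-RNAi array. None of these passed the test. The other 436 values of named members at 6 h, and all 900 of their 48 h changes, kept their direction. The cause of these shifts was not tested. With 3 arrays a group, a 2-fold line difference at 6 h would often be missed. The lack of a called member at 6 h therefore does not show that the lines were equal.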

Other observations

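Of the 25 gene lists, 9 held a member. The 16 without one include the lists for phytoalexins, salicylate and WRKY factors, jasmonate, ethylene, abscisic acid, pathogenesis-related proteins, calcium signalling, callose and vesicle traffic, lignin, photosynthesis and translation. Named members were 26 of the 2036 eligible genes with a name. The 16 lists held from 8 tested genes, for callose and vesicle traffic, to 91, for transporters. Tested genes need not reach the minimum level, and whether these lists held fewer members than that share gives was not tested. Since lists were matched by symbol and 165 of the 191 member genes carry only a locus number, a list with no member may still have unnamed genes among them.

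The member genes lay on all 12 chromosomes of the RefSeq assembly, from 0.861% of the eligible genes on chromosome 8 to 1.69% on chromosome 6. Over all chromosomes they were 191 of 14280 eligible genes. Of 14267 pairs of direct neighbours among the eligible genes, 7 were of 2 member genes. These include LOC4331532, LOC4331533 and LOC4331534 in a row on chromosome 3. Whether 7 exceeds the number given by random positions, and whether neighbours share signal, was not tested. Of the member genes, 7 were measured by 2 member probe sets and LOC4348151 by 3, whose 48 h differences ran from 1.28 to 1.43 in NIL-Bph6 and from -2.19 to -1.79 in NIL-Bph6-RNAi. Among 37 further probe sets of member genes, 18 reached the minimum level. Of these, 14 had a positive 48 h difference in NIL-Bph6 and a negative one in NIL-Bph6-RNAi, and 11 passed both thresholds. Both signs were met by 2957 of the 16322 eligible probe sets. These values come from the arrays that chose the members.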
